A study of Homo sapiens with 3 samples.

Results

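The genes described here are 10 imprinted genes that lie outside the H19 locus, namely PEG3, PEG10, MEST, MEG3, PLAGL1, GRB10, NDN, SNRPN, CDKN1C and PHLDA2. They were taken by gene symbol from the 29960 genes of the deposited table, and all 10 were found. All cells came from 5637, an established bladder carcinoma line, either as the parental cells (genotype WT in the labels) or as a gemcitabine-resistant derivative. The labels call the gemcitabine treatment that produced it acute, and the study's text describes continuous exposure. All cells were untreated when harvested, and each library was made from a single-cell clone. The series design describes 3 clones per group. Read counts were used here for the 3 libraries with a sample label, Parental 1, Resistant 1 and Resistant 2, together with the authors' mean of each group, which also covers clones without a label here. A clone carries the history of 1 cell, so clones of one group can differ. In bulk RNA of this kind, fewer cells with a transcript and less transcript per cell cannot be told apart.

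Imprinted genes are expressed mainly from the allele inherited from one parent, because DNA methylation laid down in the germ line marks one of the alleles. The marked stretches, called imprinting control regions, often act over a domain of several neighbouring genes. Many of the paternally expressed members favour fetal growth and several maternally expressed members restrain it. Imprints are often lost or altered in tumors, and RNA counts without allele information, as used here, do not show which allele was read.

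The libraries held 14475531 (Parental 1), 15836788 (Resistant 1) and 17461941 (Resistant 2) reads counted on genes. Levels are given as CPM, counts scaled to a library of 1e6 reads and by edgeR's TMM factors of 0.974, 1.03 and 0.995. A gene was called on at 1 CPM or more, and at the floor with 3 reads or fewer, which corresponds to 0.213, 0.184 and 0.173 CPM in the same order of libraries. Intervals on single libraries are exact Poisson or exact conditional binomial 95% intervals and cover counting error only. The resistant clones were tested against the parental clone with edgeR's quasi-likelihood test over the 15643 genes kept by its filter on low counts. With 1 library against 2, the spread came from the 2 resistant clones pooled over genes, and the lone parental clone was assumed to vary like them. The labelled origin was checked against markers. All 6 epithelial and all 5 basal urothelial markers were on in all 3 libraries. Of 6 luminal urothelial markers, 4, 3 and 3 were on in Parental 1, Resistant 1 and Resistant 2, with UPK2 and UPK3A on in none and UPK1B at 5.26 CPM in Parental 1 and without a read in the resistant clones. Of 5 fibroblast markers found, 2, 2 and 3 were on, with summed levels of 173, 155 and 147 CPM that lay mostly in the collagen genes COL1A1 and COL1A2, while COL3A1 and PDGFRB were on in none. Of 3 neuronal markers, 1, 2 and 3 were on, with SYT1 at 12.4, 14.7 and 15.2 CPM. None of the 3 immune and 2 endothelial markers found in the table was on in any library. The summed level of the 5 basal markers was 923 CPM in Parental 1 and 389 and 454 CPM in the resistant clones, and the part of any of these marker levels in the results for the imprinted genes was not tested.

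Of the 10 imprinted genes, PEG10, PLAGL1, CDKN1C, PHLDA2 and GRB10 were on in all 3 clones. MEST was on in Parental 1 and Resistant 1 and below 1 CPM in Resistant 2. SNRPN was between the floor and 1 CPM in all 3 clones, and PEG3, MEG3 and NDN were at the floor in all 3. In number, 6 genes were on in Parental 1, 6 in Resistant 1 and 5 in Resistant 2. The filter kept 7 of the 10 for testing, and SNRPN, with 5 to 13 reads, passed it through Resistant 2. In edgeR's test 1 of the 7 passed an adjusted p of 0.05, GRB10, which was lower in the resistant clones. MEST and CDKN1C, at 11.1-fold and 3.60-fold higher fitted levels in the parental clone, missed that threshold. They passed it in DESeq2, which called 3 of the 10 genes, all lower in the resistant clones. Of all genes tested, edgeR called 137, or 0.876% (0.582% lower and 0.294% higher in the resistant clones). DESeq2 called 1.68% of the genes for which it gave an adjusted p. An unadjusted p under 0.05 in edgeR was found for 3 of the 7 genes, against 9.7% of all genes tested. The same 3 genes were at least 2-fold lower in both resistant libraries than in Parental 1, with 0.1 CPM added to each level, against 3.32% of all genes tested, and 0 were at least 2-fold higher in both, against 4.46%. By the authors' group means 3 of the 7 genes differed at least 2-fold (7.47% of all genes tested), all 3 lower in the resistant group (3.28%). The median log2 change was 0.19 over the 7 tested genes, 4 higher and 3 lower, and 0.03 over all genes tested. The median of the 7 counts SNRPN, which was highest in Resistant 2, the library that took it past the filter. Without SNRPN it would be lower, so it does not place the 7 genes near all genes.

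**Figure D1:**
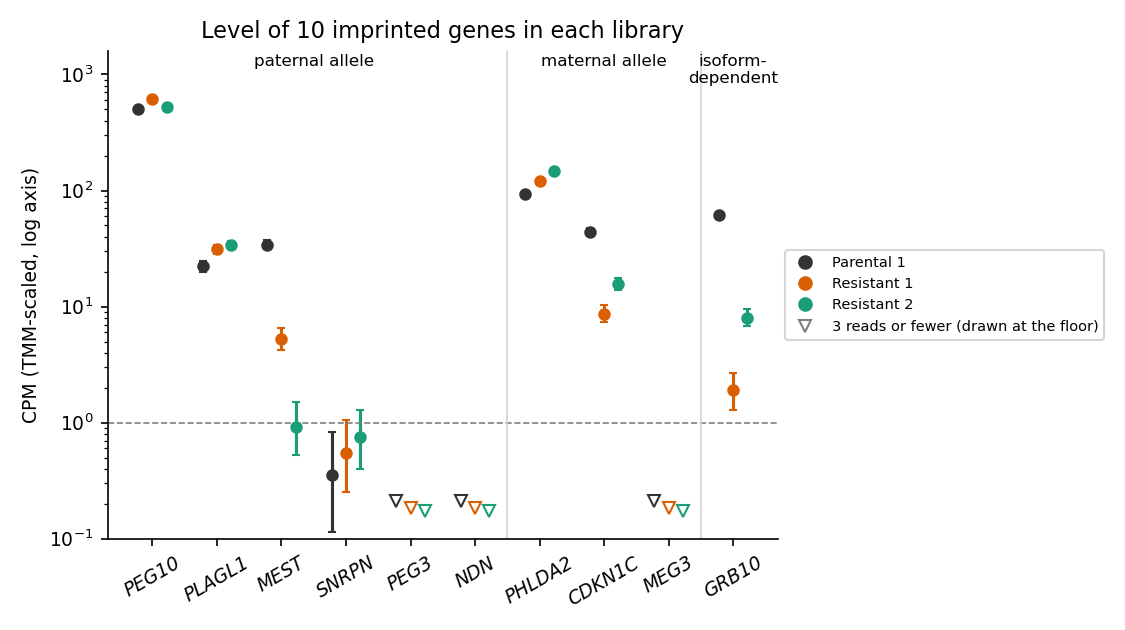
Level of each of the 10 imprinted genes in Parental 1, Resistant 1 and Resistant 2, in CPM on a log axis, grouped by the parental allele known to be expressed. Bars are exact 95% Poisson intervals for counting error, the dashed line marks 1 CPM, and open triangles stand for 3 reads or fewer; MEST, CDKN1C and GRB10 are the genes with a parental level above both resistant levels.

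GRB10 (ENSG00000106070, chromosome 7, 50657760 to 50861159, minus strand, in the hg19 coordinates of the deposited table) encodes an adaptor protein that binds the insulin and insulin-like growth factor receptors and dampens their signalling. Its imprint depends on the isoform and tissue, and the counts sum over isoforms. It held 868 reads in Parental 1, 31 in Resistant 1 and 139 in Resistant 2. These are levels of 61.7 CPM (95% interval 57.6 to 65.9), 1.90 CPM (1.29 to 2.69) and 8.01 CPM (6.74 to 9.46). Both resistant clones were below the parental clone, and their own intervals did not overlap. GRB10 fell by 3.63 on the log2 scale (SE 0.61, n = 1 against 2), a 12.4-fold lower fitted level, with an adjusted p of 0.0278 in edgeR's quasi-likelihood test and 2.25e-05 in DESeq2. Taken one clone at a time, the log2 ratio to Parental 1 was -5.02 in Resistant 1 and -2.94 in Resistant 2, against -3.63 with both resistant clones.

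The difference was smaller by the authors' group means. They gave GRB10 420.8 normalized counts in the parental group and 62.5 in the resistant group, a log2 ratio of -2.73 after a pseudocount of 1. Divided by the total of its column, the authors' parental mean corresponds to 28.6 CPM, below the 61.7 CPM of Parental 1. The authors' resistant mean corresponds to 4.29 CPM, between the levels of the labelled resistant clones. Parental 1 thus stood above the mean of its own group for GRB10, and the parental clones without a label here lay lower on average. The edgeR result for GRB10 rests on this 1 parental clone.

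MEST (ENSG00000106484, chromosome 7, 130126046 to 130146133, plus strand) is a paternally expressed gene of the mesoderm that encodes a protein of the alpha/beta hydrolase fold. It held 482 reads in Parental 1, 86 in Resistant 1 and 16 in Resistant 2. The levels were 34.2 CPM (31.2 to 37.4), 5.26 CPM (4.21 to 6.50) and 0.922 CPM (0.527 to 1.50). The order of the resistant clones was the opposite of that for GRB10, with the lower MEST level in Resistant 2. The edgeR log2 change was -3.47 (SE 0.70), with an adjusted p of 0.0571. DESeq2 gave an adjusted p of 0.000888. The log2 ratio to Parental 1 was -2.70 in Resistant 1 alone and -5.21 in Resistant 2 alone. The authors' group means were 783.4 and 135.3 normalized counts, a log2 ratio of -2.53. The authors' resistant mean, at 9.29 CPM of its column, lay above both labelled resistant clones. A resistant clone without a label here thus had a higher MEST level than both. The authors' parental mean, at 53.2 CPM, lay above Parental 1.

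CDKN1C (ENSG00000129757, chromosome 11, 2904443 to 2907111, minus strand) is maternally expressed and encodes p57, an inhibitor of cyclin-dependent kinases that holds cells in the first gap phase. It held 616 reads in Parental 1, 142 in Resistant 1 and 270 in Resistant 2. The levels were 43.8 CPM (40.4 to 47.4), 8.69 CPM (7.32 to 10.2) and 15.6 CPM (13.8 to 17.5), with both resistant clones below the parental clone. The edgeR log2 change was -1.85 (SE 0.41), with an adjusted p of 0.0885, and DESeq2 gave an adjusted p of 0.0323. The authors' group means were 627.9 and 211.4 normalized counts, a log2 ratio of -1.57. For CDKN1C the authors' parental mean, at 42.6 CPM of its column, was close to Parental 1.

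PHLDA2 (ENSG00000181649, chromosome 11, 2949503 to 2950685, minus strand), a maternally expressed gene for a small pleckstrin homology domain protein that limits placental growth, starts 43.6 kb from CDKN1C in the same imprinted domain. It held 1322, 1979 and 2558 reads, or 93.9, 121 and 147 CPM, in Parental 1, Resistant 1 and Resistant 2. Both resistant clones were above the parental clone, in the direction opposite to CDKN1C. The edgeR log2 change was 0.52 (SE 0.37), with an adjusted p of 0.753. The number of CDKN1C reads per PHLDA2 read, a ratio that needs no scaling between libraries, was 0.466 (95% interval 0.423 to 0.513) in Parental 1, 0.0718 (0.0601 to 0.0851) in Resistant 1 and 0.106 (0.0928 to 0.120) in Resistant 2. The intervals of the resistant clones did not reach that of the parental clone.

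**Figure D2:**
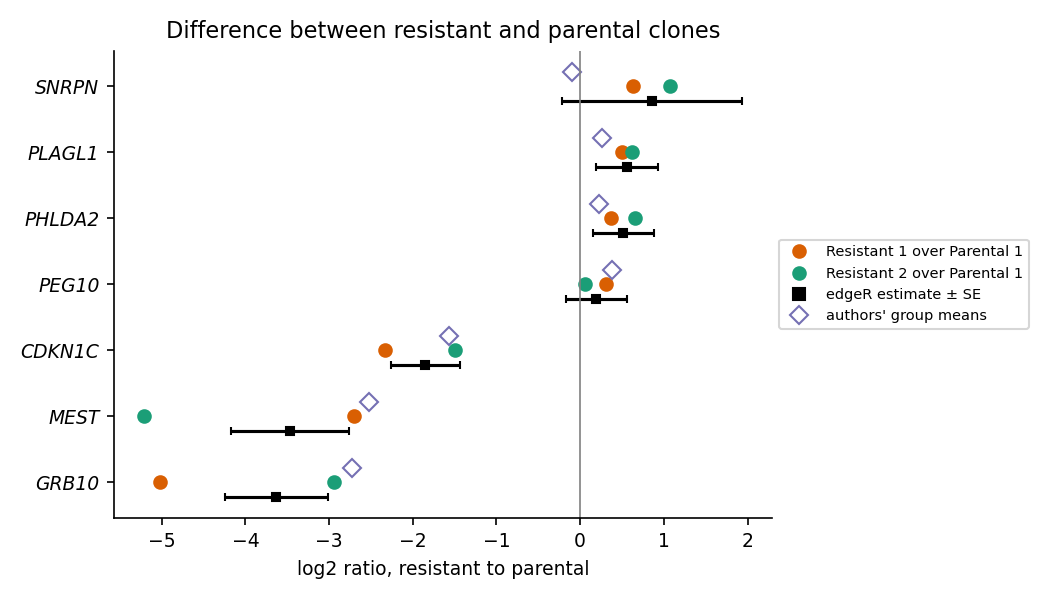
log2 ratio of the resistant to the parental level for the 7 tested genes, with circles for each resistant clone over Parental 1, squares for the edgeR estimate with its SE, and open diamonds for the authors' group means. GRB10, MEST and CDKN1C lie left of 0 by all 4 measures, and GRB10 and MEST have the clones furthest apart, in opposite order.

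PEG10 (ENSG00000242265, chromosome 7, 94285637 to 94299007, plus strand), a paternally expressed gene derived from a retrotransposon and needed for the placenta, had the most reads of the 10 genes. It was read at 499 CPM in Parental 1, 620 CPM in Resistant 1 and 520 CPM in Resistant 2. The resistant clones were 1.14-fold higher by the fit (log2 change 0.19, SE 0.36, edgeR adjusted p of 0.949). The authors' group means of 6613 and 8637 normalized counts gave a log2 ratio of 0.39. PLAGL1 (ENSG00000118495, chromosome 6, 144261437 to 144385735, minus strand), a paternally expressed zinc finger transcription factor that can arrest the cell cycle, was read at 22.2, 31.2 and 34.0 CPM in Parental 1, Resistant 1 and Resistant 2. Its log2 change was 0.56 (SE 0.37, edgeR adjusted p of 0.719), and the authors' group means gave 0.27. Neither PEG10, PLAGL1 nor PHLDA2 had a difference beyond the spread that the test allowed, while both resistant libraries were above the parental library for each.

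SNRPN (ENSG00000128739, chromosome 15, 25068794 to 25223870, plus strand), which encodes a spliceosome protein and spans the imprinting center of the Prader-Willi domain, held 5, 9 and 13 reads in Parental 1, Resistant 1 and Resistant 2. These are 0.355, 0.551 and 0.749 CPM, and their 95% intervals overlapped. Its edgeR log2 change was 0.86 (SE 1.07, adjusted p of 0.908), whereas the authors' group means of 10.6 and 9.82 normalized counts gave -0.10. It overlaps SNURF on the same strand by 23738 bases in the table, and how reads shared by both were assigned is not given in the sources used here. NDN, for the growth suppressor necdin of the same domain, had 1 read, in Resistant 1. PEG3, for a paternally expressed zinc finger protein, and MEG3, a maternally expressed long noncoding RNA with tumor suppressor activity, had 1 read each, both in Resistant 2. PEG3 overlaps ZIM2 on the same strand by 30652 bases, and how their shared reads were assigned is likewise not given. For a library without a read the exact 95% interval reached 0.262 CPM in Parental 1, 0.226 CPM in Resistant 1 and 0.213 CPM in Resistant 2. No fold was computed for these 3 genes, and a difference between clones was not detectable at these counts.

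Levels of different genes were compared per kilobase, by the deposited FPKM. In Parental 1 the order was PHLDA2 at 95.6, PEG10 at 73.4, CDKN1C at 20.7, MEST at 13.5, GRB10 at 11.0, PLAGL1 at 4.87 and SNRPN at 0.181 FPKM, and no neighbours in this order had overlapping counting intervals. In both resistant clones PHLDA2 and PEG10 stayed in front, at 131 and 96.7 FPKM in Resistant 1 and at 153 and 78.0 FPKM in Resistant 2. PLAGL1 came next, at 7.27 FPKM in Resistant 1 and 7.63 FPKM in Resistant 2. In Resistant 2 its interval overlapped that of CDKN1C at 7.54 FPKM. GRB10 and SNRPN could not be ranked in Resistant 1 (0.360 and 0.298 FPKM), nor SNRPN and MEST in Resistant 2 (0.391 and 0.372 FPKM), since their intervals overlapped.

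The resistant clones also differed from each other. After 0.1 CPM was added to each level, 2 of the 7 tested genes differed at least 2-fold between Resistant 1 and Resistant 2, against 11.4% of all genes tested. MEST was 5.71-fold higher in Resistant 1 (95% interval 3.32 to 10.4), and GRB10 was 4.22-fold higher in Resistant 2 (2.85 to 6.45). CDKN1C was 1.79-fold higher in Resistant 2 (1.46 to 2.21). The ratio of Resistant 2 to Resistant 1 was 1.22 for PHLDA2, 1.09 for PLAGL1 and 0.838 for PEG10. Each clone is 1 library, so these intervals hold counting error only and no test between the clones was made.

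Promoter sequences were looked up for the genes whose levels differed and for PLAGL1, to show the CpG pairs near their starts. RefSeq windows from 250 bases before to 50 bases after each start (GRCh38.p14) were found for 6 of the 10 genes, MEST, MEG3, PLAGL1, GRB10, NDN and SNRPN, in 23 windows. The window richest in CpG is shown for GRB10 (chr7:50792825-50793124, minus strand), MEST (chr7:130491835-130492134, plus strand) and PLAGL1 (chr6:144008210-144008509, minus strand), from 5′ to 3′ on the strand of the gene, with each CpG pair in capitals.
GRB10: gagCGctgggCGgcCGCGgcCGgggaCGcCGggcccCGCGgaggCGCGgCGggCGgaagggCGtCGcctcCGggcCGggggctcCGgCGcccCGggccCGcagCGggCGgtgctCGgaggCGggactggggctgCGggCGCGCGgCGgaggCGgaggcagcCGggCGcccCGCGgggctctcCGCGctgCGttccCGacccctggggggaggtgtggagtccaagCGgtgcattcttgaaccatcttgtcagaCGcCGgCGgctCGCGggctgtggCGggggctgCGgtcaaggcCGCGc
MEST: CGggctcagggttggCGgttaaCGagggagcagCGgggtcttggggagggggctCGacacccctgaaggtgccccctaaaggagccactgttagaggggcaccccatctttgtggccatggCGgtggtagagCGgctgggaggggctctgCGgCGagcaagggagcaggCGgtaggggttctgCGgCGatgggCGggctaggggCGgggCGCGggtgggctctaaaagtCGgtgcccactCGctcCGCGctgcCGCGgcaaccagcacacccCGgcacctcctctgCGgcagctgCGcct
PLAGL1: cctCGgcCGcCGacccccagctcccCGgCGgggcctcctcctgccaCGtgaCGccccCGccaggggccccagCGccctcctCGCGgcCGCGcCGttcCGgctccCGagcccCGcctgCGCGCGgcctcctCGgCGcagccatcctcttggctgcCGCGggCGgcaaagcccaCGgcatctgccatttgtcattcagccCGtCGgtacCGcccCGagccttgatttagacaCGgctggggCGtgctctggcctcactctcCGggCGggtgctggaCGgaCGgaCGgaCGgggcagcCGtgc
The GRB10 window held 49 CpG pairs, the PLAGL1 window 39 and the MEST window 25, against a median of 14 over 35116 windows. As the richest window of each gene was picked, values above the median are no finding about these genes. Their other windows held 3 to 44 pairs for GRB10, 2 to 31 for PLAGL1 and 13 to 22 for MEST. At least 1 copy of the hexamer TGCCGC, the letters bound by the imprint factor ZFP57, was found on either strand in 12 of the 23 windows and in 16.7% of all windows. The MEST window shown holds 3 copies, the PLAGL1 window 2 and the GRB10 window 0, while another GRB10 window holds 1. Windows of MEG3 and of MEST overlap, so the 23 windows are not separate stretches. The hexamer itself holds a CpG pair, and the 16.7% covers windows of any CpG content, so no excess can be read from the 2 shares. The letters do not show binding, and methylation was not measured. Whether a window shown lies in an imprinting control region was not examined.

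The other genes of the same domains were read from a list of 30. Of these, 18 were found in the table, 9 were tested, and none passed an adjusted p of 0.05 in edgeR, with 1 at an unadjusted p under 0.05 and 1 called by DESeq2. Next to PEG10, SGCE, the epsilon-sarcoglycan gene that faces it across a shared promoter region, was read at 30.6, 34.6 and 25.7 CPM in Parental 1, Resistant 1 and Resistant 2, with a log2 change of -0.02. PPP1R9A had a log2 change of 0.16. In the domain of NDN and SNRPN, the ubiquitin ligase gene UBE3A, whose imprint is confined to neurons, was read at 88.5, 86.3 and 86.4 CPM. The remaining listed genes found there, SNURF, NPAP1 and ATP10A, were below 1 CPM in every library. SNHG14, a gene outside the list that starts 156 kb from the start of SNRPN, was read at 37.4, 48.5 and 21.3 CPM. ZIM2 of the PEG3 domain, RTL1 and MEG8 of the MEG3 domain and DDC of the GRB10 domain were at the floor in all 3 libraries.

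In the MEST domain, CPA4, a carboxypeptidase gene that starts 193 kb before MEST, was read at 22.9, 4.28 and 6.92 CPM in Parental 1, Resistant 1 and Resistant 2. Its log2 change was -2.03 (SE 0.44), with an adjusted p of 0.0784 in edgeR and 0.0369 in DESeq2. CEP41, which starts between them and 43.8 kb before MEST, had a log2 change of 0.19, and COPG2, which overlaps the end of MEST by 45 bases on the other strand, had one of -0.34. Whether the library kit kept the strand is not given in the sources used here. Of 14 tested genes that start within 1 Mb of MEST, 3 were lower and 11 higher in the resistant clones, with a median log2 change of 0.30. The number of MEST reads per COPG2 read was 2.16 in Parental 1, 0.371 in Resistant 1 and 0.0851 in Resistant 2. The number of MEST reads per CPA4 read was 1.49 (95% interval 1.29 to 1.72) in Parental 1, 1.23 (0.886 to 1.71) in Resistant 1 and 0.133 (0.0738 to 0.226) in Resistant 2. The intervals of Parental 1 and Resistant 1 overlapped, and that of Resistant 2 lay below both. KLF14 had no more than 4 reads in any library. Around GRB10 a single other gene that starts within 1 Mb was tested, FIGNL1, with a log2 change of 0.22.

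Of 23 tested genes that start within 1 Mb of CDKN1C, 19 were lower and 4 higher in the resistant clones, with a median log2 change of -0.79, and 2 passed the adjusted p in edgeR, H19 and TNNT3. The log2 change of CDKN1C, at -1.85, was further from 0 than this median, and that of PHLDA2, at 0.52, had the other sign. CDKN1C was not alone in this, as 7 of the 23, H19 and TNNT3 among them, were at least 2-fold lower by the fit. At least 2-fold higher was 1 of the 23. SLC22A18, an organic cation transporter gene between them, was read at 9.59, 10.1 and 9.63 CPM in Parental 1, Resistant 1 and Resistant 2. KCNQ1OT1, the paternally expressed long noncoding RNA that silences the domain in cis, was read at 6.18, 4.28 and 3.57 CPM, with a log2 change of -0.65 (SE 0.50, edgeR adjusted p of 0.788). It lies antisense to KCNQ1, which had at most 1 read in a library. OSBPL5, an oxysterol-binding protein gene, was at 14.6 CPM in Resistant 1 and at 46.7 and 39.5 CPM in Parental 1 and Resistant 2. SLC22A18AS had 2, 24 and 3 reads in Parental 1, Resistant 1 and Resistant 2. The part of the lower surrounding genes in the CDKN1C level was not tested.

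**Figure D3:**
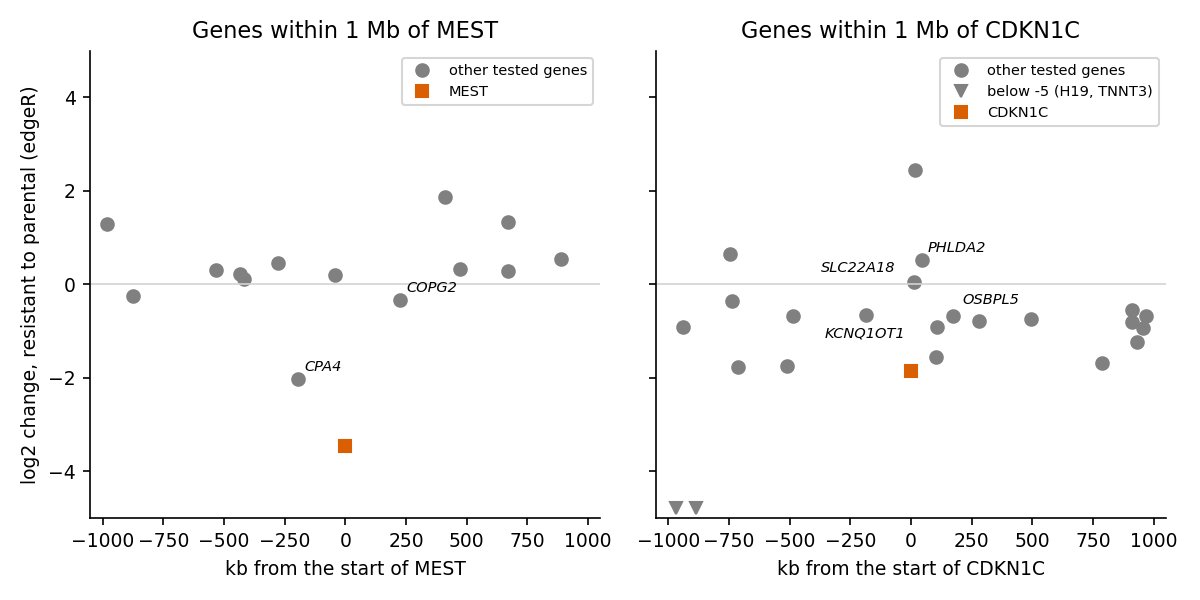
edgeR log2 change of every tested gene that starts within 1 Mb of MEST (left) or CDKN1C (right), against the distance of its start in kb along the chromosome. Most genes around MEST lie at or above 0 (11 of 14) and most around CDKN1C below 0 (19 of 23), with PHLDA2 above 0 and H19 and TNNT3, below the lower limit, drawn as triangles.

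Outside these domains, 36 further imprinted genes were listed, of which 32 were found and 24 tested. Their median log2 change was 0.11, 14 were higher and 10 lower in the resistant clones, and none passed an adjusted p of 0.05 in edgeR, an unadjusted p under 0.05 in edgeR or an adjusted p of 0.05 in DESeq2. Together with the domain genes, 33 were tested and 30 had a log2 change smaller than 1. Over all 50 other imprinted genes found, 29 were on in all 3 libraries, 17 in none and 4 in some. At least 2-fold differences between Resistant 1 and Resistant 2, again with 0.1 CPM added, were counted for 5 of the 33 tested, against the 11.4% of all genes tested. LRRTM1, a gene for a synaptic membrane protein that was singled out after its values were seen, had 16 reads in Parental 1, 1 in Resistant 1 and 671 in Resistant 2. Its level was 1.14, 0.0612 and 38.7 CPM, and the ratio of Resistant 2 to Resistant 1 was 632 (95% interval 113 to 25001).

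**Figure D4:**
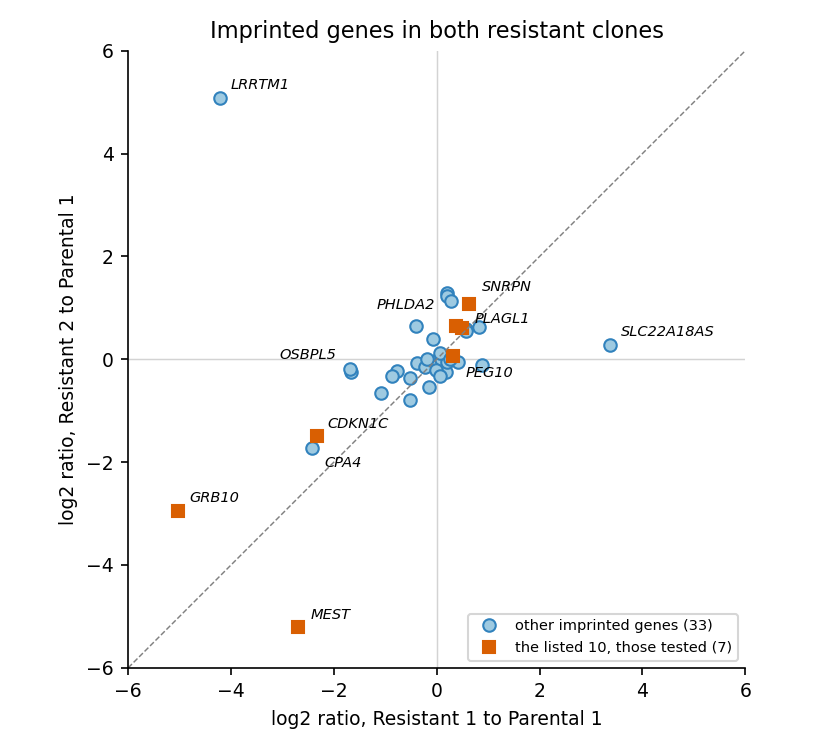
log2 ratio to Parental 1 in Resistant 1 (horizontal) and in Resistant 2 (vertical) for the 7 tested genes of the 10 (squares) and 33 other imprinted genes (circles). The dashed line marks equal ratios in both clones, both axes share Parental 1, and GRB10, MEST, LRRTM1 and SLC22A18AS lie far from the line.

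Factors that keep imprints through cell division were read from a list of 12, of which 10 were found and tested. All 10 were on in all 3 libraries, and none passed an adjusted p of 0.05 in edgeR or in DESeq2, or an unadjusted p under 0.05 in edgeR. Their median log2 change was -0.23, and the values ran from -0.65 to 0.01. DNMT1, the methyltransferase that copies methylation to the new strand, was read at 457, 359 and 547 CPM in Parental 1, Resistant 1 and Resistant 2. Its partner UHRF1 was read at 454, 267 and 338 CPM. TRIM28, the corepressor that ZFP57 recruits, was read at 1060, 727 and 1008 CPM, and ZNF445, a second zinc finger protein that binds imprinted regions, at 51.6, 47.6 and 43.7 CPM. CTCF, the insulator protein, had the lowest log2 change of the list, -0.65, with levels of 136, 104 and 69.2 CPM. ZFP57 was 1 of the 2 listed factors that were not found in the deposited table, by symbol or by identifier.

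For the 3 genes on in some library whose log2 change reached 1 in size, the tested genes with the closest pattern were sought, by Euclidean distance of centred log2 CPM over the 3 libraries. For GRB10 they were CNR1 (distance 0.38), SEMA6A (0.47) and GRID1 (0.64). For MEST they were KIAA1211L (0.40), ATOH8 (0.48) and SCARA3 (0.62). For CDKN1C they were UBE2Q2P1 (0.064), PAPLN (0.083) and SLAMF7 (0.099), of which SLAMF7 stayed below 1 CPM in all 3 libraries. Of these 9 genes, none is on the chromosome of the gene it resembles, and 3 libraries give few degrees of freedom for such a likeness.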

How the data were processed

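RNA of single-cell clones of the 5637 line was sequenced by the authors as poly-A-selected libraries. The deposited table holds raw read counts per gene and library as the authors deposited them, the FPKM of each library, which the authors computed from the count, the gene length and the library total, and 1 signal column per group, the mean of size-factor normalized counts that the authors took over its clones. Submitters' processing notes name CASAVA 1.8 and hg19, while aligner, counter and strand setting are not given in the sources used here. Columns of log2 fold changes and p-values hold the authors' own comparison and were not used, nor were 6 library columns without a sample label.

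Counts of 3 libraries were analysed with edgeR 4.0.16 in R 4.3.3 (filterByExpr with a minimum count of 10, TMM, quasi-likelihood test, Benjamini-Hochberg adjustment over 15643 genes). With 1 residual degree of freedom, p-values set the difference against a spread between the 2 resistant clones that was pooled over genes. No spread between parental clones entered them. The SE is the log2 change divided by the square root of the F statistic. DESeq2 1.42.0 was an alternative, as were size factors, no filter, other thresholds and leaving out a library. The fit was tested on simulated data. Group means were compared after a pseudocount of 1. Symbols were matched as written, then by identifier (2 of 50 other imprinted genes). The genes named were the 10, the genes of their domains, any listed gene past the threshold, the maintenance factors, and for genes whose log2 change reached 1 in size the 3 genes closest in pattern. FIGNL1, CEP41, H19, TNNT3, SNHG14 and LRRTM1 were named after their values were seen. The 1 Mb windows and the promoter windows were added after the values were seen. The 10 genes and all lists were chosen with earlier results of these data known. Python 3.11.15, scipy 1.17.1 and pandas 2.3.3 were used.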

Additional observations from a re-analysis of the deposited data

How the results depend on the processing

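The count of calls depended on the settings. Of the 10 genes, 1 was called by the edgeR fit with TMM and its filter, against 3 with DESeq2 size factors in the same fit, 3 with no filter on low counts and 3 with DESeq2. The 3 were GRB10, MEST and CDKN1C each time, all lower in the resistant clones. The log2 change ranged from -3.64 to -3.63 for GRB10, from -3.48 to -3.47 for MEST and from -1.86 to -1.85 for CDKN1C over these settings, and the adjusted p from 4.09e-15 to 0.0278, from 4.25e-11 to 0.0571 and from 0.000662 to 0.0885. Over all genes the counts were 137 (46 higher, 91 lower), 235, 534 (273 higher, 261 lower) and 248 (124 higher, 124 lower) in the same order. Of the other imprinted genes 0, 1, 2 and 1 were called, CPA4 in each of the last 3 settings and LRRTM1 without the filter. No maintenance factor was called under any of these 4 settings.

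Leaving out 1 resistant library left 1 library a group and a log2 ratio without a test. This ratio ran from -5.02 to -2.94 for GRB10, from -5.21 to -2.70 for MEST, and from -2.33 to -1.49 for CDKN1C. No paired analysis was made, because the labels give no pairing between parental and resistant clones. The SNRPN ratio of -0.10 by the authors' group means turned to 0.77 with the 3 labelled libraries, at 5 to 13 reads. With on set at 0.5 CPM, 6, 7 and 7 of the 10 genes were on in Parental 1, Resistant 1 and Resistant 2, and at 2 CPM 6, 5 and 5. Scaling by the total count kept 6, 6 and 5 genes. Low counts limit PEG3, MEG3, NDN and SNRPN most. For PEG3 and SNRPN the handling of reads shared with an overlapping gene is also not known.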
